A study of Mus musculus with 9 samples.

Results

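The receptors for interleukin-3 (IL-3), GM-CSF and interleukin-5 (IL-5) are described here through the 5 genes that encode their chains in the mouse, Il3ra, Csf2ra, Il5ra, Csf2rb and Csf2rb2, chosen by symbol from the 35673 rows of a bulk RNA sequencing table. All 5 were present and all 5 passed the filter on low counts. The libraries came from basophils of wild-type C57BL/6J mice, grown from bone marrow for 7 days in 0.3 ng/mL IL-3 and selected for the integrin CD49b on magnetic beads, so every group had met IL-3 before the experiment. In portions of 10000 cells, the cells then spent 4 hours in 1 of 3 conditions, with 3 libraries each. The difamilast group was given both cytokines, IL-3 and IL-33, each at a concentration of 10 ng/mL, plus difamilast at 3 µM, an inhibitor of phosphodiesterase 4, the enzyme family that breaks down the messenger cAMP. The stimulated group received the same cytokines with the vehicle DMSO. The resting group received PBS with DMSO. IL-33 is an alarmin that signals through ST2, a receptor of another family.

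IL-3, GM-CSF and IL-5 each bind their own alpha chain with low affinity, and the alpha chain then pairs with a beta chain that carries the signal through the kinase JAK2 to the factor STAT5. Mice have a pair of beta chains. Csf2rb encodes the common beta chain that serves all 3 cytokines, and Csf2rb2 encodes a beta chain that works with the IL-3 receptor only. In basophils IL-3 is the main growth and survival factor, and GM-CSF and IL-5 act through the same beta chain.

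The beta chain genes lie beside each other on chromosome 15 of GRCm38 and read away from each other, Csf2rb2 on the minus strand at chr15:78282507-78305721 and Csf2rb on the plus strand at chr15:78325752-78353847, with 20030 bases between them in the GENCODE vM21 annotation. Their coding sequences aligned over 2628 bases, of which 2503 (95.2%) were identical, and the longest identical stretch was 242 bases. The following 100-base coding windows, each inside a single exon, are shown because they hold the most differences of any such window, 16, and so let reads of one gene be told from reads of the other. Capitals mark the differing bases, each sequence is given on its gene's own strand, and the windows lie at chr15:78338887-78338986 for Csf2rb and chr15:78294345-78294444 for Csf2rb2.
Csf2rb: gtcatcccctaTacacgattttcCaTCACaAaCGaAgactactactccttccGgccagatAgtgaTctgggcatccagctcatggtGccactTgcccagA
Csf2rb2: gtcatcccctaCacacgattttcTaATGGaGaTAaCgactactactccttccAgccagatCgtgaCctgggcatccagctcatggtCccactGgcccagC
Of all 100-base stretches of the Csf2rb transcript, 6.96% occurred unchanged in a Csf2rb2 transcript, and 7.2% of those of Csf2rb2 occurred in Csf2rb. For stretches of 50 bases the shares were 18.4% and 19%. Reads from such stretches cannot be assigned, and how the authors counted them is not given in the sources used here, so the sum of the 2 rows is reported beside each.

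**Figure D1:**
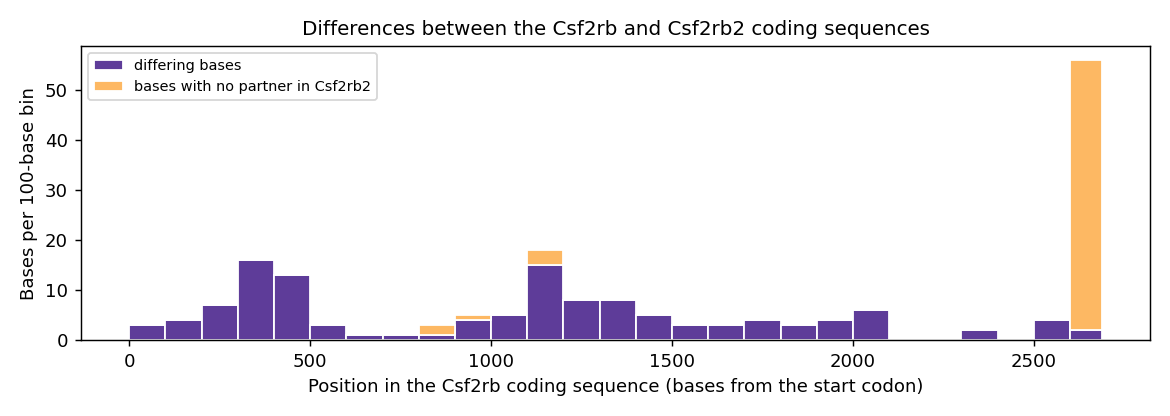
Differing bases (purple) and bases with no partner in Csf2rb2 (orange) per 100-base bin along the Csf2rb coding sequence; the last bin is shorter. Bins held between 0 and 16 differing bases, most in the bins of bases 301 to 400 and 1101 to 1200, and the last bin held 54 bases absent from Csf2rb2.

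The alpha chain genes lie apart from these and from each other in the same annotation, Il3ra on the plus strand at chr14:14346275-14356011 with 11 exons, Csf2ra on the minus strand at chr19:61223957-61228429 with 12 exons and Il5ra on the minus strand at chr6:106710357-106749037 with 13 exons. The promoter windows of 3 members, from RefSeq on GRCm38.p6 (250 bases before to 50 after the start), are shown because these members moved apart from each other in the results that follow. Capitals mark matches, on either strand, to 5 motifs that were searched: the full cAMP response element TGACGTCA, a STAT motif TTCNNNGAA, a GATA motif AGATAA, a PU.1 motif GAGGAAGT and a C/EBP motif TTGCNNAA. Csf2rb had no entry.
Csf2rb2, chr15:78305672-78305971, minus strand: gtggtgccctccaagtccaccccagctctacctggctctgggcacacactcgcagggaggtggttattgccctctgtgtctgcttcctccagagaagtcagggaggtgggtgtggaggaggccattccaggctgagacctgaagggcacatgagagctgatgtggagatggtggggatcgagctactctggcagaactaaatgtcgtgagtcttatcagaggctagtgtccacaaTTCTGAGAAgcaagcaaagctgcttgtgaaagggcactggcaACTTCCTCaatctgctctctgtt
Csf2ra, chr19:61228369-61228668, minus strand: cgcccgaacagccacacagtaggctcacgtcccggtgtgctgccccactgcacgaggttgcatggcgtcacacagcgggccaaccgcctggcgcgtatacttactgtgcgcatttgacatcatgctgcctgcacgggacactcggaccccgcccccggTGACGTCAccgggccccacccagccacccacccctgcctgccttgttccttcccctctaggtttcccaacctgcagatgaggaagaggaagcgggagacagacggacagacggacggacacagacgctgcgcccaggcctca
Il3ra, chr14:14346245-14346544, plus strand: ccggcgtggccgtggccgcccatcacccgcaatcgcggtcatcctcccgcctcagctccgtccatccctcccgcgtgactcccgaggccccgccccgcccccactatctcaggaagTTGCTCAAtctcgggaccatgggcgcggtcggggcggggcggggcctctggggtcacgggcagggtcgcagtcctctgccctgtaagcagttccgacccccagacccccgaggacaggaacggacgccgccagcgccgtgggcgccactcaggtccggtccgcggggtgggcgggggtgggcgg
The Csf2rb2 window held a STAT match and, on the opposite strand, a PU.1 match; these motifs occur in 8.3% and 3.2% of all 32851 promoter windows of the RefSeq set. The Csf2ra window held a full cAMP response element, which 1.79% of windows hold. The Il3ra window held a C/EBP match (10.8% of windows), and the Il5ra window, not printed, held a GATA match (11.2%). No 2 matches overlapped, and the part of any match in the changes that follow was not tested.

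In level per kilobase of transcript, the beta chains stood far above the alpha chains in every group. Levels are read counts relative to the library size, scaled by the trimmed mean of M-values (TMM-normalised CPM), here divided by transcript length. Csf2rb lay at 676 ± 52.5 CPM per kb in difamilast, 405 ± 11.9 in stimulated and 589 ± 71.8 in resting libraries (SD, n = 3 each). Csf2rb2 lay at 479 ± 41, 292 ± 22.6 and 441 ± 70.9 CPM per kb in the same groups, below Csf2rb with no overlap in any group. Among 20649 tested genes with a length, Csf2rb ranked 89 in difamilast, 164 in stimulated and 71 in resting cells, and Csf2rb2 ranked 120, 229 and 98.

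Il3ra and Csf2ra were at a few percent of the summed beta chain level, and Il5ra was far under 1%. Il3ra, which gives the receptor its specificity for IL-3, lay at 43.4 ± 4.42 CPM per kb in difamilast, 33.6 ± 3.24 in stimulated and 23.1 ± 0.954 in resting libraries. Csf2ra, the GM-CSF binding chain, lay at 35.6 ± 0.108, 33.6 ± 2.69 and 40.7 ± 4.59 CPM per kb. Il3ra was thus below Csf2ra in resting libraries without overlap, overlapped it in stimulated libraries and was above it without overlap in difamilast libraries. With the longest Csf2ra transcript, 2277 bases in place of 1849, Csf2ra came to 28.9, 27.2 and 33.1 CPM per kb, and in stimulated libraries Il3ra then lay above it without overlap. Il5ra, the IL-5 binding chain, was lowest, at 1.4 ± 0.194, 1.19 ± 0.381 and 1.28 ± 0.379 CPM per kb, and ranked 13091, 13676 and 13337.

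**Figure D2:**
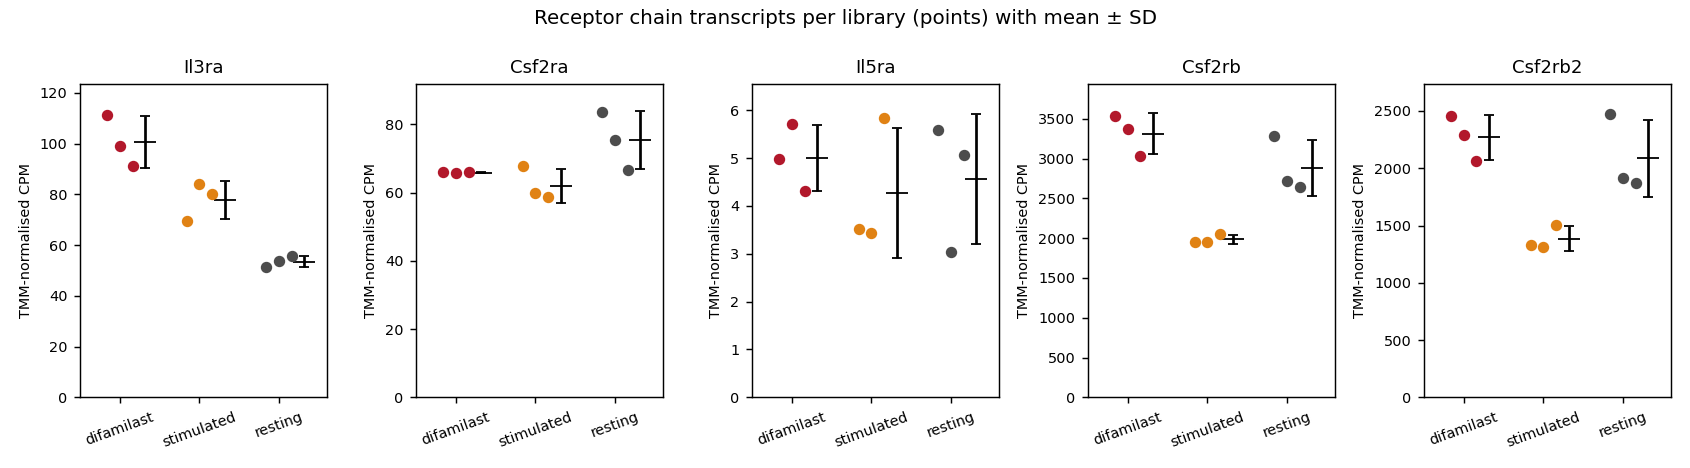
TMM-normalised CPM (linear axes from 0, not divided by length) of the 5 receptor chain genes in each library (points; difamilast, stimulated and resting from left to right), with the mean and SD of 3 libraries beside them. For Csf2rb and Csf2rb2 the 3 stimulated libraries lie below all others, and for Il3ra the groups do not overlap.

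Stimulated cells were first set against resting cells, both in vehicle, for the effect of the cytokines. The beta chains fell while the IL-3 alpha chain rose: 3 of the 5 chains changed, 1 higher and 2 lower, against 31.7% of all 21341 tested genes (15.3% higher, 16.4% lower). Over 5 chains such a count is read gene by gene, and the beta chain rows share sequence and are not independent. Changes were tested with edgeR's quasi-likelihood test on the counts, with Benjamini-Hochberg adjustment over all of these genes, and a change means an adjusted p under 0.05.

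Csf2rb lay at 1954, 1947 and 2051 CPM in the stimulated libraries, against 3288, 2717 and 2647 CPM in the resting libraries. Every stimulated library was below every resting one. The log2 fold change was -0.54 ± 0.11 (SE), 1.45-fold lower in stimulated cells (adjusted p = 0.0014, edgeR). Csf2rb2 lay at 1334, 1314 and 1508 CPM in stimulated libraries, against 2476, 1918 and 1872 CPM in resting libraries. Again the groups did not overlap, with a log2 fold change of -0.59 ± 0.12 (SE; 1.51-fold lower, adjusted p = 0.00165, edgeR). Their summed counts, which do not depend on how shared reads were split, fell by 0.56 ± 0.11 on the log2 scale (adjusted p = 0.00153, edgeR). Any shared reads that the counting left out of both rows would be missing from this sum as well.

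Resting replicate 1 held the highest beta chain levels of the resting libraries, and it also differed from the other resting libraries in cell markers. It had 957 CPM of the basophil protease gene Mcpt8, against 1715 and 1629 in resting replicates 2 and 3. The 14 basophil markers other than Il3ra summed to 10478 CPM in it, against 12892 and 12363 CPM. They did not all move together: Hdc, Gata2, Csf1, Hgf and Itga2 were highest in resting replicate 1, Hdc at 2350 CPM against 1657 and 1746 CPM. The monocyte receptor gene Csf1r was at 234 CPM, against 144 and 142. The list as a whole did not follow Csf1r: the sum of the 16 monocyte and macrophage markers was the lowest of the resting libraries, at 7651 CPM against 8967 and 9382 CPM, and Lyz2, the lysozyme of phagocytes, was at 3428 CPM against 4066 and 4376 CPM. Without it the beta chains were still lower in stimulated cells, with log2 fold changes of -0.47 for Csf2rb (adjusted p = 8.28e-05; 4.33e-06 to 0.0119 over all alternatives) and -0.48 for Csf2rb2 (adjusted p = 0.00018; 6.96e-07 to 0.0146).

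Il3ra lay at 69.5, 83.9 and 80.1 CPM in stimulated libraries, against 51.2, 53.6 and 55.6 CPM in resting libraries. All stimulated libraries were higher, 1.46-fold on average (0.55 ± 0.11 SE in log2; adjusted p = 0.00179, edgeR). This call rests on the scaling. With library totals alone the median log2 fold change of all genes was -0.47, in place of 0.06 with TMM. On that scale Il3ra stood at 0.02 (log2; adjusted p = 0.921; 0.000425 to 0.921 over all alternatives), which is above that median, and the beta chains had -1.07 for Csf2rb and -1.12 for Csf2rb2. An antisense gene, Gm48860, overlaps Il3ra and held at most 8 counts in a library, against 439 to 3089 for Il3ra.

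Csf2ra and Il5ra did not pass. Csf2ra lay at 67.7, 59.8 and 58.6 CPM in stimulated libraries, against 83.7, 75.4 and 66.7 CPM in resting libraries, so that the highest stimulated library overlapped the lowest resting one. Its log2 fold change was -0.28 ± 0.11 (SE; 95% interval -0.52 to -0.05, adjusted p = 0.0648, edgeR). It passed with DESeq2 (adjusted p = 0.0271), RLE scaling (0.0425), limma-voom (0.0474) and library totals alone (6.76e-05), and without resting replicate 3 (0.0217) or stimulated replicate 1 (0.0429), with adjusted p-values from 6.76e-05 to 0.211 over all alternatives. Il5ra had 37, 116 and 180 counts in stimulated libraries, against 80, 55 and 40 in resting libraries, or 3.52, 3.44 and 5.84 CPM against 5.59, 3.03 and 5.07 CPM. The groups overlapped, and at these counts the 95% interval of the log2 fold change, -0.64 to 0.54, was wide (adjusted p = 0.917, edgeR).

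Markers of other cells that such a culture can hold were read in the same libraries. The 16 monocyte and macrophage markers summed to between 5859 and 6300 CPM in stimulated libraries, against 7651 to 9382 CPM in resting libraries; 10 of 16 fell and 1 rose, and none was at 0 in all libraries. Csf1r was 1.76-fold lower and Lyz2 1.45-fold lower (adjusted p = 0.00104 and 0.00116, edgeR). Monocytes and macrophages also carry Csf2ra, Csf2rb and Il3ra. In bulk libraries fewer cells of a type and less RNA per cell cannot be told apart. The 14 basophil markers other than Il3ra summed to between 21313 and 22002 CPM in stimulated libraries, against 10478 to 12892 CPM in resting libraries. The beta chains moved opposite to this sum. It is weighted towards abundant genes: the chemokine gene Ccl9 averaged 6587 CPM in stimulated and 1789 CPM in resting libraries, and Mcpt8 3455 and 1434 CPM. Of 15 basophil markers, Il3ra among them, 10 rose and 1 fell, the integrin gene Itga2 1.75-fold. Cd200r3 did not pass (log2 fold change 0.08 ± 0.11 SE, adjusted p = 0.605, edgeR). Eosinophils are the classical carriers of Il5ra, and their peroxidase gene Epx was listed at 0 to 0.237 CPM in stimulated and at 0.127 to 0.33 CPM in resting libraries. The major basic protein gene Prg2 had 9.86 to 17.6 CPM in stimulated libraries, against 1.19 to 8.15 CPM in resting libraries. The neutrophil marker Ly6g was at or under 6.39 CPM in every library. Prg2 and Ly6g were called higher in stimulated cells, 2.98-fold and 2.42-fold (adjusted p = 0.00761 and 0.00215, edgeR), while other markers of their lists fell. Of the 7 eosinophil markers tested, Il5ra among them, Prg2 alone rose and 3 fell, the eotaxin receptor gene Ccr3 4.29-fold, the lipoxygenase gene Alox15 3.09-fold and the lectin gene Siglecf 2.39-fold, and the sum without Il5ra was 48.9 to 62.6 CPM in stimulated libraries, against 74.8 to 92.7 CPM in resting libraries. Of 12 neutrophil markers 3 rose and 2 fell, the collagenase gene Mmp8 1.43-fold and the myeloperoxidase gene Mpo 1.68-fold, with a median log2 fold change of -0.10. Cpa3, a protease gene of basophils and mast cells, was 1.96-fold higher in stimulated cells (adjusted p = 1.46e-05, edgeR). The mast cell markers summed to between 1529 and 1586 CPM in stimulated libraries, against 703 to 968 CPM in resting libraries. Of the 11 tested, 3 rose and 3 fell, Tph1, which encodes an enzyme of serotonin synthesis, 5.48-fold higher and the mast cell protease genes Mcpt1 and Mcpt2 8.92-fold and 5.16-fold lower. Most of the rise of the sum lay in Tph1 and the serotonin transporter gene Slc6a4. Tph1 averaged 304 CPM in stimulated and 55.5 CPM in resting libraries, and Slc6a4 443 and 117 CPM. Dendritic cell markers had 0 higher and 4 lower of 11, and progenitor markers 3 higher and 0 lower of 7. Over all tested genes 31.7% were called. The share was 73.3% for basophil, 68.8% for monocyte and macrophage, 57.1% for eosinophil and 54.5% for mast cell markers. It was 42.9% for progenitor, 41.7% for neutrophil and 36.4% for dendritic cell markers. The part of any of these cells in the changes of the receptor chains was not tested.

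The comparison of difamilast with vehicle in cells given both cytokines asks what the inhibitor changed. The beta chains were the members that rose: 2 of 5 chains were higher and none was lower, against 3.44% of all tested genes called, 2.21% higher and 1.24% lower. As above, these 2 rows share sequence. The balance of higher and lower calls over all genes, 471 and 264, was not stable: it was 831 and 842 with these 2 groups alone, 689 and 662 with no filter, 870 and 823 without resting replicate 1 and 540 and 598 without difamilast replicate 3.

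Csf2rb lay at 3532, 3372 and 3029 CPM in difamilast libraries, against 1954, 1947 and 2051 CPM in stimulated libraries. The lowest difamilast library was well above the highest stimulated one. The log2 fold change was 0.74 ± 0.11 (SE; 1.67-fold higher, adjusted p = 0.000813, edgeR). Csf2rb2 lay at 2455, 2288 and 2067 CPM in difamilast libraries, against 1334, 1314 and 1508 CPM in stimulated libraries. Its log2 fold change was 0.71 ± 0.12 (SE; 1.64-fold higher, adjusted p = 0.00283, edgeR), and that of the summed counts was 0.73 ± 0.11 (adjusted p = 0.00138, edgeR). Neither call was lost in any alternative, with each library left out in turn among them, and adjusted p-values ran up to 0.0118 for Csf2rb and 0.0332 for Csf2rb2. Their transcripts are long, 4900 and 4740 bases. With the trend of each library with transcript length removed, the log2 fold changes were 0.69 and 0.66 (adjusted p = 0.00018 and 0.000621, edgeR).

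The alpha chains did not pass this comparison. Il3ra lay at 111, 98.9 and 91.2 CPM in difamilast libraries, against 69.5, 83.9 and 80.1 CPM in stimulated libraries. These groups did not overlap, but the log2 fold change of 0.37 ± 0.11 (SE; 95% interval 0.13 to 0.60) had an adjusted p of 0.101 (edgeR). It passed with DESeq2 (adjusted p = 0.0359), when only these 2 groups were fitted (0.0299) and without resting replicate 1 (0.0178) or difamilast replicate 3 (0.0493), with 0.0178 to 0.44 over all alternatives. Csf2ra lay at 66, 65.6 and 65.9 CPM in difamilast libraries, against 67.7, 59.8 and 58.6 CPM in stimulated libraries. Its log2 fold change was 0.09 ± 0.11 (SE; 95% interval -0.15 to 0.32, adjusted p = 0.792, edgeR). Il5ra had 138, 156 and 91 counts in difamilast libraries, against 37, 116 and 180 in stimulated libraries, with a 95% interval of the log2 fold change from -0.35 to 0.76 (adjusted p = 0.791, edgeR).

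The monocyte and macrophage markers summed to between 6380 and 6562 CPM in difamilast libraries, against 5859 to 6300 CPM in stimulated libraries. Of 16 markers 1 rose, Cd14, a co-receptor for endotoxin, at 3.32-fold (adjusted p = 1.61e-06, edgeR), and the rest did not pass. Without Cd14 the sums were 5374, 5518 and 5828 CPM in difamilast libraries, against 5883, 5614 and 6017 CPM in stimulated libraries, and overlapped. Csf1r (log2 fold change -0.04 ± 0.16 SE, adjusted p = 0.94) and Lyz2 (-0.06 ± 0.10, adjusted p = 0.855) were among those that did not pass in edgeR's test. The basophil markers summed to between 23608 and 24584 CPM in difamilast libraries, against 21313 to 22002 CPM in stimulated libraries. Of 15 basophil markers 1 rose, Hdc, the enzyme of histamine synthesis, at 1.98-fold, and 3 fell, the cytokine genes Il4 2.57-fold and Csf1 2.08-fold and Ms4a2, the beta chain of the IgE receptor, 1.75-fold (adjusted p at most 0.00047, edgeR). Without Hdc the basophil sums were 19106, 19038 and 20501 CPM in difamilast libraries, against 19056, 19420 and 19647 CPM in stimulated libraries, and overlapped. The mast cell markers summed to between 1148 and 1196 CPM in difamilast libraries, against 1529 to 1586 CPM in stimulated libraries, with 0 higher and 3 lower of 11. Most of the fall of this sum lay in Slc6a4, at 179 ± 9.86 CPM in difamilast libraries, against 443 ± 28.2 CPM in stimulated libraries. Eosinophil and dendritic cell markers had 0 calls of 7 and of 11, 1 of 12 neutrophil markers fell, and of 7 progenitor markers 1 rose and 2 fell. Over all tested genes 3.44% were called. The share was 6.25% for monocyte and macrophage, 26.7% for basophil, 27.3% for mast cell, 8.33% for neutrophil and 42.9% for progenitor markers. As before, the part of these cells was not tested. The log2 fold change of Mcpt8, -0.30 ± 0.18 (SE), did not pass (adjusted p = 0.473, edgeR).

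The comparison of difamilast with resting cells sets cells given cytokines and inhibitor against cells given neither, and it shares its libraries with the other comparisons. No group received difamilast without cytokines, so the effects of cytokines and inhibitor cannot be told apart in it. Il3ra was the member that changed, 1 of 5, against 32.8% of all tested genes (16.4% higher, 16.4% lower). It lay at 111, 98.9 and 91.2 CPM in difamilast libraries, against 51.2, 53.6 and 55.6 CPM in resting libraries, 1.88-fold higher (log2 fold change 0.91 ± 0.11 SE, adjusted p = 1.79e-05, edgeR). With library totals alone it was 0.41 (adjusted p = 0.0145; 4.98e-11 to 0.0145 over all alternatives), beside a median of -0.50 over all genes.

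The beta chains under difamilast overlapped the resting levels. For Csf2rb, 3532, 3372 and 3029 CPM in difamilast libraries stood against 3288, 2717 and 2647 CPM in resting libraries, with a log2 fold change of 0.20 ± 0.11 (SE; 95% interval -0.03 to 0.43, adjusted p = 0.18, edgeR). For Csf2rb2 the log2 fold change was 0.12 ± 0.12 (SE; 95% interval -0.14 to 0.38, adjusted p = 0.489, edgeR). Without resting replicate 1 both beta chains were higher than in resting cells. In edgeR's test the log2 fold changes were 0.27 for Csf2rb (adjusted p = 0.00864, with 0.00864 to 0.542 over all alternatives) and 0.23 for Csf2rb2 (adjusted p = 0.042, with 0.0281 to 0.953). With library totals alone the signs turned, to -0.31 (adjusted p = 0.0556) and -0.39 (adjusted p = 0.0281), which is less negative than the median gene. Csf2ra (log2 fold change -0.20 ± 0.11 SE, adjusted p = 0.196; its groups did not overlap) and Il5ra (0.16 ± 0.27, adjusted p = 0.697) did not pass in edgeR's test. Csf2ra passed with library totals alone, where its log2 fold change was -0.71 (adjusted p = 0.00024; 0.00024 to 0.406 over all alternatives).

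**Figure D3:**
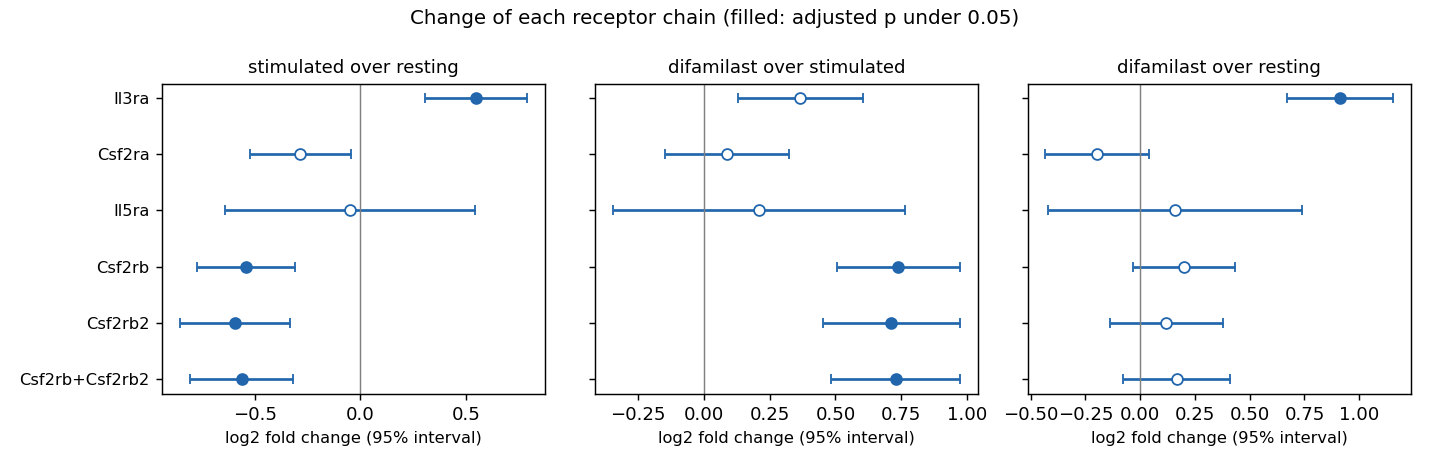
Log2 fold change with its 95% interval for each receptor chain gene and for the sum of the beta chain counts, in the 3 comparisons (filled circles: adjusted p under 0.05). The beta chains lie left of 0 for stimulated over resting (-0.54 and -0.59) and right of 0 for difamilast over stimulated (0.74 and 0.71), while Il3ra lies right of 0 throughout.

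Ratios within a library do not depend on the scaling between libraries. Il3ra came to 3.89%, 3.65% and 3.74% of the summed beta chain level per kilobase in difamilast libraries, 4.41%, 5.38% and 4.7% in stimulated libraries and 1.85%, 2.42% and 2.57% in resting libraries. All 6 libraries with cytokines were above all 3 without, by 0.91 on the log2 scale, or 1.88-fold. A 2-sided exact permutation test gave p = 0.0238, the smallest that 6 against 3 libraries can give, and adjusted over the 16 ratio tests the value was 0.178, which does not pass. Tests of 3 against 3 libraries cannot go below p = 0.1, and the ratio of Il3ra reached this value in the exact test for each pair of groups.

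Csf2ra came to 2.88%, 3.03% and 3.38% of the summed beta chain level in difamilast libraries, 5.39%, 4.79% and 4.3% in stimulated libraries and 3.8%, 4.25% and 3.86% in resting libraries. The 3 groups did not overlap, with stimulated cells highest and difamilast cells lowest (exact permutation p = 0.1 for each pair of groups, the smallest possible). Il5ra came to between 0.113% and 0.137% in difamilast, 0.143% and 0.222% in stimulated and 0.0891% and 0.153% in resting libraries, where the resting range overlapped both others while difamilast and stimulated libraries did not overlap. These ratios share the beta chains as denominator and are not separate findings about the alpha chains. From stimulated to difamilast cells the summed beta chain counts moved by 0.73 on the log2 scale, Csf2ra by 0.09 and Il5ra by 0.21.

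The split between the beta chains moved little. Csf2rb2 took 41%, 40.4% and 40.6% of their joint counts in difamilast libraries, 40.6%, 40.3% and 42.4% in stimulated libraries and 43%, 41.4% and 41.4% in resting libraries. The 95% Wilson intervals of these shares, which cover counting error only, were at most from 40.1% to 41.1% in stimulated replicate 1, the library with the fewest beta chain counts. Difamilast libraries lay below resting ones without overlap, by 0.07 on the log2 scale of the ratio (exact permutation p = 0.1), and the other pairs of groups overlapped.

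**Figure D4:**
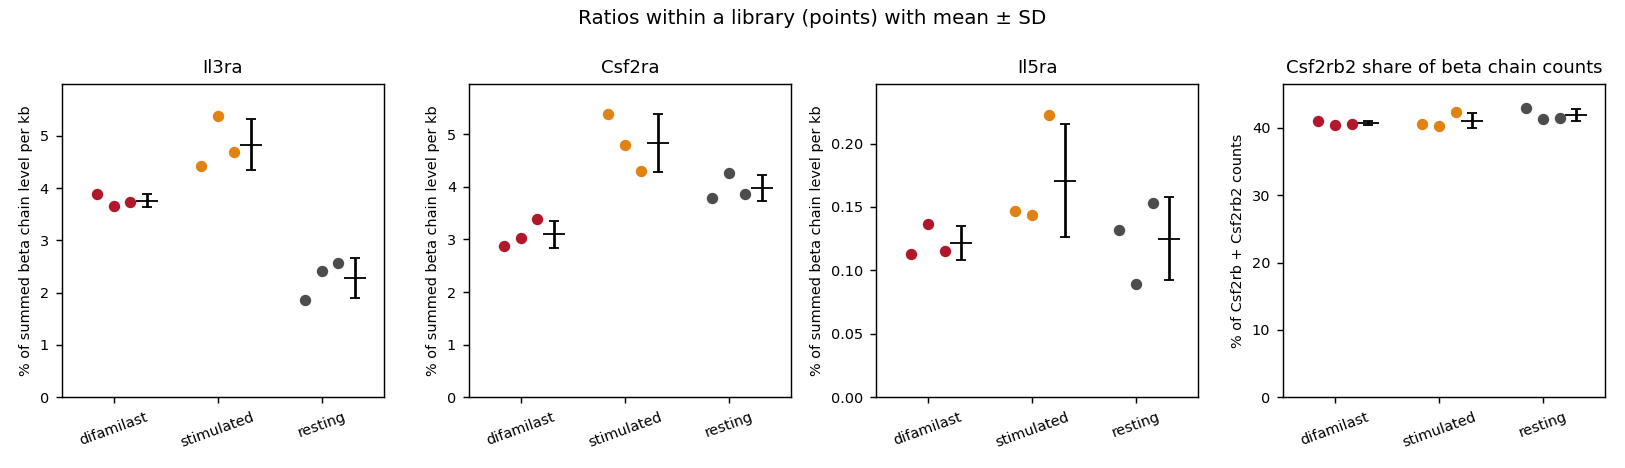
Levels of the 3 alpha chains as a percent of the summed beta chain level per kilobase, and the share of Csf2rb2 in the beta chain counts, for each library (points; difamilast, stimulated and resting from left to right) with mean and SD. Il3ra lies between 3.65% and 5.38% in all libraries with cytokines and at or under 2.57% in resting ones, and Csf2rb2 stays between 40.3% and 43%.

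Over the 9 libraries the patterns of the 5 chains differed. In log2 CPM, Pearson's r was 0.99 between Csf2rb and Csf2rb2, 0.50 between Csf2ra and Csf2rb, and -0.65 between Il3ra and Csf2ra, as a description of 3 groups of 3 libraries that share their group differences. Among 7820 other genes averaging at least 10 CPM (7821 for Il5ra), the genes most like Csf2rb were Trf, which encodes the iron carrier transferrin (r = 0.99), Csf2rb2 and Tpd52 (r = 0.99). Trf lay at 984 CPM on average in difamilast, 416 in stimulated and 775 in resting libraries. Those most like Csf2rb2 were Csf2rb, the adaptor gene Nedd9 (r = 0.99) and Emilin2, which encodes a matrix glycoprotein (r = 0.98). Those most like Il3ra were Olfr63, an olfactory receptor gene, Ddit4, a stress-induced inhibitor of mTOR signalling, and Cebpb, the transcription factor C/EBP beta (r = 0.99, 0.99 and 0.98). Cebpb averaged 421 CPM in difamilast, 299 in stimulated and 202 in resting libraries. Csf2ra was most like Btrc, Zw10 and Camta2 (r = 0.97, 0.96 and 0.96), and Il5ra was less closely matched, by Rbm12, Gsk3a and Abhd13 (r = 0.91, 0.89 and 0.88).

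The cells also made transcripts of the ligands themselves. Csf2, which encodes GM-CSF, had 59.8, 68.3 and 110 CPM in difamilast libraries, 121, 132 and 123 CPM in stimulated libraries and 3.78, 6.44 and 5.19 CPM in resting libraries. It rose with stimulation (adjusted p = 1.36e-09), and between difamilast and stimulated cells its log2 fold change of -0.66 ± 0.19 (SE) did not pass (adjusted p = 0.0846, edgeR). Il5 had 13.1, 11.5 and 7.02 CPM in difamilast libraries, 3.9, 3.98 and 4.18 CPM in stimulated libraries and 0.629, 1.43 and 1.77 CPM in resting libraries. It was 3.28-fold higher in stimulated than in resting cells and 2.62-fold higher in difamilast than in stimulated cells (adjusted p = 0.00102 and 0.00536, edgeR). Il3 was rare, with 34, 40 and 20 counts in difamilast libraries, 7, 25 and 10 in stimulated libraries and 1, 0 and 0 in resting libraries. It was called higher in stimulated than in resting cells (adjusted p = 0.0023, edgeR), and the difference between difamilast and stimulated cells did not pass (adjusted p = 0.253).

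Behind the receptor, Jak2 and 1 of the genes for STAT5, Stat5a, rose with stimulation. Of 25 genes of receptor signalling (kinases, STAT factors, adaptors and phosphatases), 11 rose and 4 fell (60%, beside 31.7% of all tested genes). Their median log2 fold change was 0.12, beside 0.06 over all tested genes. Jak2 was 5.56-fold and Stat5a 4.97-fold higher in stimulated cells, Pik3cd, a catalytic subunit of PI3-kinase, was 2.92-fold higher, and Inpp5d, the inhibitory lipid phosphatase SHIP1, was 2.21-fold lower. Stat5b averaged 81.9 ± 5.79 CPM in stimulated libraries, against 104 ± 32.2 CPM in resting libraries, and did not pass (log2 fold change -0.35 ± 0.16 SE, adjusted p = 0.116, edgeR). Jak2 averaged 2334 ± 134 CPM in stimulated libraries, against 420 ± 52.4 CPM in resting libraries. Of 20 STAT5 feedback and target genes, 16 rose and 1 fell (85%), with a median of 2.11. Il2ra, the alpha chain of the IL-2 receptor, was 15.5-fold, the survival kinase gene Pim2 11.7-fold, the feedback inhibitor gene Socs3 11.2-fold and the survival gene Bcl2l1 8.64-fold higher. The adjusted p-values of these 8 genes were at most 4.25e-07 in edgeR's test.

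With difamilast, 3 of 25 receptor signalling genes (12%) and 1 of 20 STAT5 feedback and target genes (5%) passed against stimulated cells, beside 3.44% of all tested genes. In receptor signalling 2 rose and 1 fell (median log2 fold change -0.01, beside -0.0029 over all tested genes). These were Pik3r1, the regulatory subunit of PI3-kinase (1.32-fold higher, adjusted p = 0.0298), Stat3 (1.49-fold higher, adjusted p = 0.032) and Ptpn6, the inhibitory phosphatase SHP-1 (1.47-fold lower, adjusted p = 0.01, edgeR). Of the STAT5 feedback and target genes 1 of 20 rose, the cytokine gene Osm (1.75-fold higher, adjusted p = 0.000365, edgeR), and none of the others passed. These counts rest on single libraries: 6 receptor signalling genes were called without resting replicate 1, 1 without difamilast replicate 1, and 0 without any of the 3 stimulated replicates in turn or without difamilast replicate 2, while 3 STAT5 genes were called without resting replicate 1. Against resting cells, difamilast cells had 10 receptor signalling genes higher and 3 lower (52%, beside 32.8% of all tested genes). Stat5a was 4.7-fold and Jak2 5.11-fold higher, and Ptpn6 was 2.69-fold and Inpp5d 2.44-fold lower. Difamilast cells had 16 STAT5 feedback and target genes higher and 1 lower (85%). Pim2, Il2ra, Socs3 and Cish were among the higher ones at 11.3-fold, 13.3-fold, 12.1-fold and 11.3-fold.

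Other cytokine receptor chains of the same structural classes give the family setting. Of 36, 33 were tested. With stimulation 16 rose and 6 fell (66.7%, beside 31.7% of all tested genes, median log2 fold change 0.53). Il2ra rose as above, Il15ra was 5.34-fold and the common gamma chain gene Il2rg 2.58-fold higher, and Ifngr1, a chain of the interferon gamma receptor, was 2.82-fold lower in stimulated cells. With difamilast 2 of 33 rose and 2 fell against stimulated cells (12.1%, beside 3.44% of all tested genes). Of these chains 7 were called without resting replicate 1, and 1 without stimulated replicate 1 or 2 or difamilast replicate 1 or 2. Il12rb2, a chain of the IL-12 receptor, was 2.09-fold higher, Ifngr1 was 1.37-fold higher at 77 ± 6.39 CPM in difamilast, against 56.1 ± 0.54 CPM in stimulated and 158 ± 6.58 CPM in resting libraries, and Ifngr2 and Il6ra were 1.46-fold and 1.45-fold lower (adjusted p = 0.00335, 0.0169, 0.0108 and 0.0326, edgeR). Against resting cells 13 were higher and 9 lower in difamilast cells (66.7%, beside 32.8% of all tested genes). Il15ra was 3.93-fold, Il4ra 3.8-fold and Il2rg 2.38-fold higher, beside Il2ra.

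Receptors of other structural families and lineage factors were read for comparison. Of 16 such receptors, 4 rose and 6 fell with stimulation (62.5%, beside 31.7% of all tested genes, median log2 fold change -0.45). Il1rl1, which encodes ST2, was 2.4-fold and Ms4a2 1.73-fold higher, while the IL-18 receptor genes Il18r1 and Il18rap were 2.74-fold and 2.71-fold lower. With difamilast 2 of the 16 passed against stimulated cells, 1 higher and 1 lower, beside 3.44% of all tested genes. Without resting replicate 1, 4 were called. Il1r2, a decoy receptor for interleukin-1, was 2.48-fold higher and Ms4a2 was 1.75-fold lower, at 103 ± 6.47 CPM in difamilast, against 181 ± 4.95 CPM in stimulated and 104 ± 4.17 CPM in resting libraries. Ms4a2 thus moved opposite to the beta chains of the IL-3 receptor in both comparisons. Against resting cells 2 were higher and 7 lower in difamilast cells (56.2%, beside 32.8% of all tested genes). Il1rl1 was 2.32-fold higher, and Il18r1 was 3.18-fold, Il18rap 2.74-fold and Kit, the stem cell factor receptor gene, 1.97-fold lower.

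Of 23 transcription factors of granulocyte lineages, 10 rose and 5 fell with stimulation (65.2%, beside 31.7% of all tested genes, median log2 fold change 0.40). Stat5a rose as above, and Etv6 was 3.53-fold, Bhlhe40 3.09-fold and Gata2, which basophils need, 1.84-fold higher. With difamilast 2 rose and 3 fell against stimulated cells (21.7%, beside 3.44% of all tested genes). Of these factors 8 were called without resting replicate 1 but 3 without difamilast replicate 2. Nfil3 was 1.74-fold and Myb 1.87-fold higher, and Mitf and Bhlhe40 were 1.96-fold and 1.47-fold lower (adjusted p = 0.00121, 0.00446, 0.0016 and 0.00457, edgeR). Against resting cells 10 were higher and 6 lower in difamilast cells (69.6%, beside 32.8% of all tested genes). Etv6 was 3.56-fold, Nfil3 2.31-fold and Bhlhe40 2.1-fold higher, beside Stat5a.

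**Figure D5:**
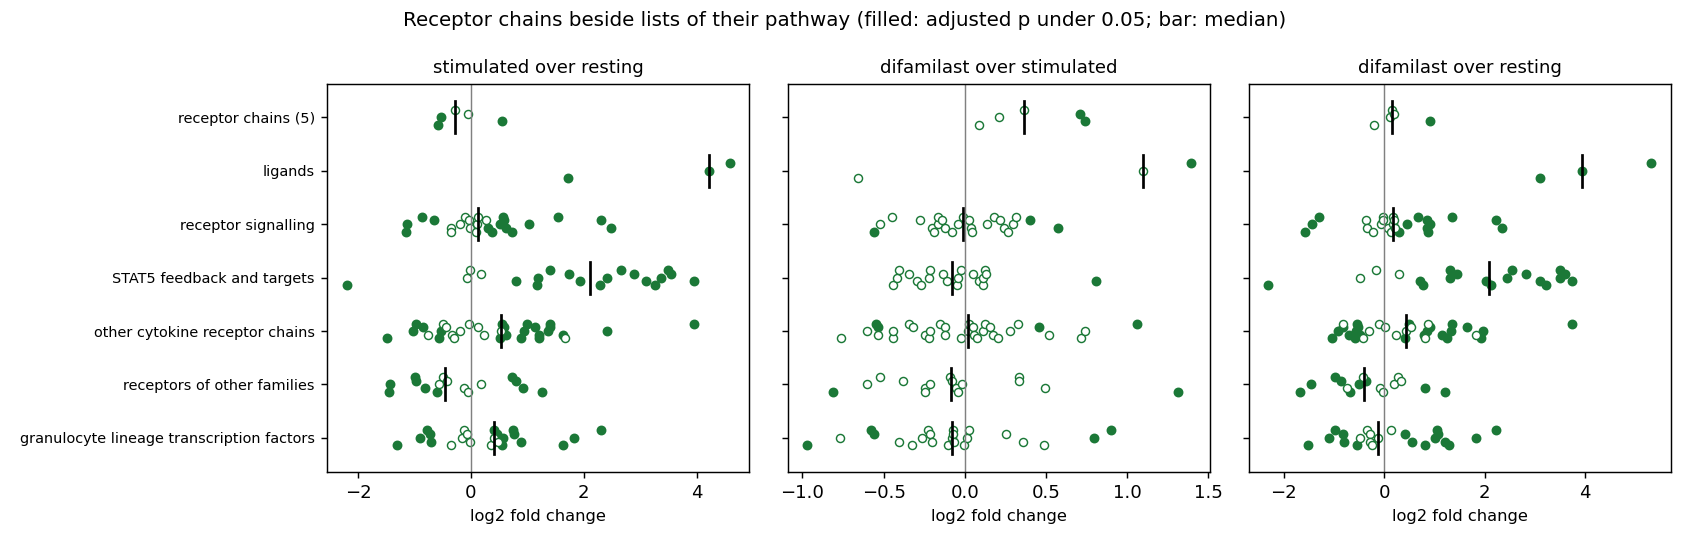
Log2 fold change of each gene of the 5 receptor chains and of 6 pathway lists in the 3 comparisons (filled circles: adjusted p under 0.05; bars: list medians; the horizontal axes differ). STAT5 feedback and target genes have a median of 2.11 for stimulated over resting and -0.08 for difamilast over stimulated.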

How the data were processed

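Raw read counts per gene symbol were deposited by the authors for 9 libraries, with totals from 6261446 to 38098584. Bead-bound mRNA was reverse transcribed, amplified with the TAS-Seq workflow and fragmented, per the labels' protocols. Adapter trimming software cutadapt 4.1, the aligner Bowtie2 2.4.5 and the build GRCm38 stand in the submitters' processing notes. The sources used here do not give the counting tool, its annotation or its strand setting. No molecular identifiers are mentioned, so counting error is a lower limit.

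Groups came from the sample titles. The labels do not say that replicates were separate cultures, so p-values reflect how these samples vary, and this variation may be technical. Libraries of a group differed beyond sampling noise (chi-square per degree of freedom 4.28 to 43.3).

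Counts were tested with edgeR 4.0.16 (R 4.3.3, limma 3.58.1, statmod 1.5.0), by its quasi-likelihood test with robust dispersion in 1 model of the 9 libraries (residual degrees of freedom 6), after TMM scaling and a filterByExpr filter whose minimum count was 10 and whose minimum total was 15, with Benjamini-Hochberg adjustment over 21341 genes at 0.05. The common biological coefficient of variation was 0.156. The test was checked on simulated counts. Lengths are those of the principal transcript in GENCODE vM21, which gave 20649 tested genes a length. Ratios used 0.5 added counts. Likeness used log2 CPM with a prior count of 2.

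Named genes are the 5 chains, the ligands, up to 4 called genes of each list with the smallest p, 3 most alike genes for each chain without predicted, ribosomal protein and mitochondrial genes, and 7 cell markers; other cell markers and Stat5b were named after their values were seen. Members and lists were chosen with earlier results of these data known. As alternatives, RLE scaling, DESeq2 1.42.0, no filter on low counts, 2 groups alone, a replicate block, limma-voom, removal of a lowess length trend (span 0.3), thinning to the shallowest library and leaving out each library were run; library totals alone and the marker sums without Cd14 or Hdc were chosen later, with the data in view.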

Additional observations from a re-analysis of the deposited data

How the results depend on the processing

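Of 502 alternative values for the chains, ratios and counts of called genes, 459 were labelled as unchanged. For fold changes and ratios of 6 against 3 libraries this meant the same sign and side of the threshold. Ratios of 3 against 3 libraries had to shift by less than the larger group SD, and counts had to stay within a set fold. Small ratio differences could thus change sign. Over left-out libraries Csf2rb2 over Csf2rb, difamilast against stimulated, ran from -0.048 to 0.014. The Il5ra ratio, difamilast against resting, ran from -0.23 to 0.16. Where the beta chains were called, no alternative lost the call. Correlations of deviations between same-numbered libraries ran from -0.40 to 0.42, with no sign in common. Libraries of different numbers were not set beside them, so these values cannot tell whether the numbers mark pairs. With the replicate number as a block no chain changed its call (log2 fold changes of Csf2rb -0.53 for stimulated against resting and 0.73 for difamilast against stimulated), and the counts of called genes were 6489 for stimulated against resting, 700 for difamilast against stimulated and 6652 for difamilast against resting. Log2 fold changes that crossed the threshold or changed sign were as follows, and the cause was not tested. For stimulated against resting, Csf2ra passed with DESeq2 (-0.33), RLE scaling (-0.33), limma-voom (-0.30) and library totals (-0.81), and leaving out a library gave -0.40 to -0.24. Il3ra did not pass with library totals (0.019). Il5ra, which never passed, changed sign with limma-voom (0.0029) and without the length trend (0.029), and ranged from -0.37 to 0.14 over left-out libraries. It turned positive without resting replicate 1 (0.14), stimulated replicate 1 (0.0061) or stimulated replicate 2 (0.11). For difamilast against stimulated, Il3ra passed with DESeq2 (0.39) and with these 2 groups alone (0.37), with 0.30 to 0.43 over left-out libraries. For difamilast against resting, library totals gave -0.71 for Csf2ra, -0.35 for Il5ra, -0.31 for Csf2rb, -0.39 for Csf2rb2 and -0.35 for their sum. Over left-out libraries these were 0.11 to 0.27 for Csf2rb, 0.014 to 0.23 for Csf2rb2, 0.069 to 0.26 for their sum and -0.14 to 0.35 for Il5ra (-0.14 without resting replicate 2).

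The 735 genes called for difamilast against stimulated became 1107 with DESeq2, 1351 with no filter, 1673 with these 2 groups alone and 347 to 1693 over left-out libraries (1693 without resting replicate 1, 1138 without difamilast replicate 3, 347 without difamilast replicate 2). The 7001 called for difamilast against resting became 10979 with library totals, where 13.7% of calls were higher, against 50% with TMM. For stimulated against resting, 13.2% of the calls with library totals were higher, against 48.3% with TMM.

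For the 6 libraries with cytokines against the 3 without, the log2 difference of the Il3ra ratio was 0.77 to 1.01 over left-out libraries; without a resting library the smallest possible exact permutation p is 0.0714. That of the Csf2ra ratio, -0.04, turned to 0.0097 without resting replicate 2, and to 0.043 and 0.029 without difamilast replicates 1 and 2. That of Csf2rb2 over Csf2rb, -0.06, was -0.080 without stimulated replicate 3 and -0.032 without resting replicate 1, at the ends of its range; the first had an unadjusted exact permutation p of 0.0357. The depth limits Il5ra, with 37 to 180 counts in a library.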
